A study of Saccharomyces cerevisiae with 11 samples.

Results

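In 190 yeast ORFs the transcript leader, the stretch of mRNA between the capped 5′ end and the start codon, was called at clearly different lengths in different fractions of one polysome gradient. They were chosen by that spread. An ORF had to be called in at least 5 of 7 fractions with its longest length at least 20 nucleotides (nt) above its shortest. It was left out if its mean leader in S288C TL-seq was under 12 nt or at least 100 nt. Of 4551 ORFs with a call in any library, 2062 had a call in at least 5 fractions and 238 of these reached the range. The bounds on TL-seq length left out 12 with short and 36 with long leaders. The 28 members without any S288C TL-seq call had no mean and were kept.

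The lengths come from TATL-seq, in which capped 5′ ends are sequenced from RNA of each gradient fraction, with 1 library per fraction and no repeat of the gradient. The cells were labelled BY4742, a MATα derivative of the laboratory strain S288C with his3∆1, leu2∆0, lys2∆0 and ura3∆0. Set beside them were 2 biological replicates of whole-cell TL-seq labelled S288C, and 1 TL-seq library each with and without pyrophosphatase from Sigma 1278b, a MATa strain with ura3, leu2, trp1 and his3 mutations. Every culture was in rich glucose medium at 30 °C and in mid-log growth. Pyrophosphatase takes off the cap and leaves an end to which an adaptor can be ligated. A call in the library without it comes from ends ligated without that step, and does not show a capped end. The protocols name a HiSeq instrument for the S288C libraries and a Genome Analyzer II for the other 9, so strain, method and sequencer cannot be told apart where S288C is compared. Fractions held 2081 to 2483 ORF calls, with the lowest number in fraction 1, and the number of reads behind each call is unknown.

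A transcript leader is scanned by the small ribosomal subunit from the cap towards the start codon. A gene with more than one transcription start site makes mRNAs that share a protein but differ in the leader, and a longer leader can add upstream start codons or structure. In a polysome gradient mRNAs separate by the number of ribosomes they carry, which is why a length that differs between fractions draws attention. Whether low-numbered fractions are the light or the heavy end is not stated in the labels. The deposited files give 1 length per ORF and library, so that how much of an mRNA used each start within a fraction is not known. No sequence of these leaders was held here, and upstream start codons between the starts were not analysed.

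Among the 1684 ORFs called in at least 5 fractions and inside the TL-seq bounds, the 190 members make up 11.3%, and the median range over fractions of all 1684 was 4 nt. This share is fixed by the rule, and nothing is read from it. The members' median range was 28 nt (quartiles 23 and 45.5 nt, highest 342 nt). In 105 it was 20 to 29 nt, in 45 at least 50 nt and in 27 at least 100 nt. All 7 fractions had a call in 95 members, 6 in 60 and 5 in 35. Just inside the threshold were 18 ORFs with a range of 20 nt, such as the mRNA decapping enzyme gene DCP2 (37 nt in 5 fractions, 51 nt in fraction 4, 57 nt in fraction 6), the diphthamide synthesis gene DPH2 (1, 15 and 21 nt), the chaperonin gene CCT7 (27 to 47 nt) and the coenzyme A synthesis gene CAB3 (17, 19 and 37 nt). Just outside were 24 with 19 nt, among them BSC6 (56 to 75 nt), the cell cycle kinase gene CDC28 (14 to 33 nt), CIP1 (19 to 38 nt) and DAL3 (53 to 72 nt).

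Members fell into 3 patterns. An ORF's lengths were sorted and separated wherever neighbouring values lay 10 nt or more apart. In 72 ORFs (37.9%), called recurring-length ORFs below, at least 2 such groups each appeared in 2 or more fractions. In 81 (42.6%), called single-fraction ORFs, all fractions but 1 gave 1 group. The remaining 37 (19.5%) had either no gap (14) or 1 recurring length with several single ones (23). Fraction 1 weighed most on this set. Without it 122 members of 1573 ORFs remained (7.76%), all among the 190, with 41 recurring-length, 53 single-fraction and 28 other ORFs.

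The recurring-length ORFs differed widely in how far apart their lengths were. The distance between the medians of the 2 main groups ran from 10 to 290 nt with a median of 19.5 nt, and it was at least 20 nt in 36 of 72. The 2 main groups covered every called fraction in 45. In 44 at least 2 lengths were repeated to the nucleotide. ATG33, which encodes a mitochondrial outer membrane protein of mitophagy, had the largest distance. Fractions 1 and 2 both gave 346 nt, fraction 3 gave 65 nt, fractions 4, 6 and 7 all gave 56 nt, and fraction 5 had no call. Its ORF lies on chromosome XII, 840321 to 840914 in assembly R64, and these lengths put the starts at 839975 and 840265, both in the 1067 nt before the next annotated gene. S288C TL-seq had the short leader (59 nt ± 2.83, SD, n = 2) and Sigma the long one, 346 nt to the nucleotide. An S288C mean at the long length would have left ATG33 out by the rule, so nothing is read from the S288C placement.

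YGR161W-C, a small ORF on chromosome VII (810227 to 810505), stood the other way round. Its leader was 9 and 14 nt long in fractions 3 and 4, 286 nt in both fractions 5 and 6, and within 5 nt of that in fraction 7; fractions 1 and 2 had no call. Its only S288C call was 44 nt, away from both lengths, and the rule excluded a call at the long one. RPL42B, for a protein of the large ribosomal subunit, was at 7 nt in fractions 1 and 2 but at 119 nt in fractions 3 and 7, and fraction 6 gave 19 nt. No TL-seq library called RPL42B, which has a near-identical copy, and the sources used here do not state how reads shared between copies were assigned. HBN1, for a nitroreductase-like protein, measured 99 nt in fraction 1, and fractions 3 and 4 both gave 100 nt. In fractions 2, 5, 6 and 7 it had 7, 7, 6 and 0 nt, and Sigma, with 4 nt, sided with the short group.

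**Figure D1:**
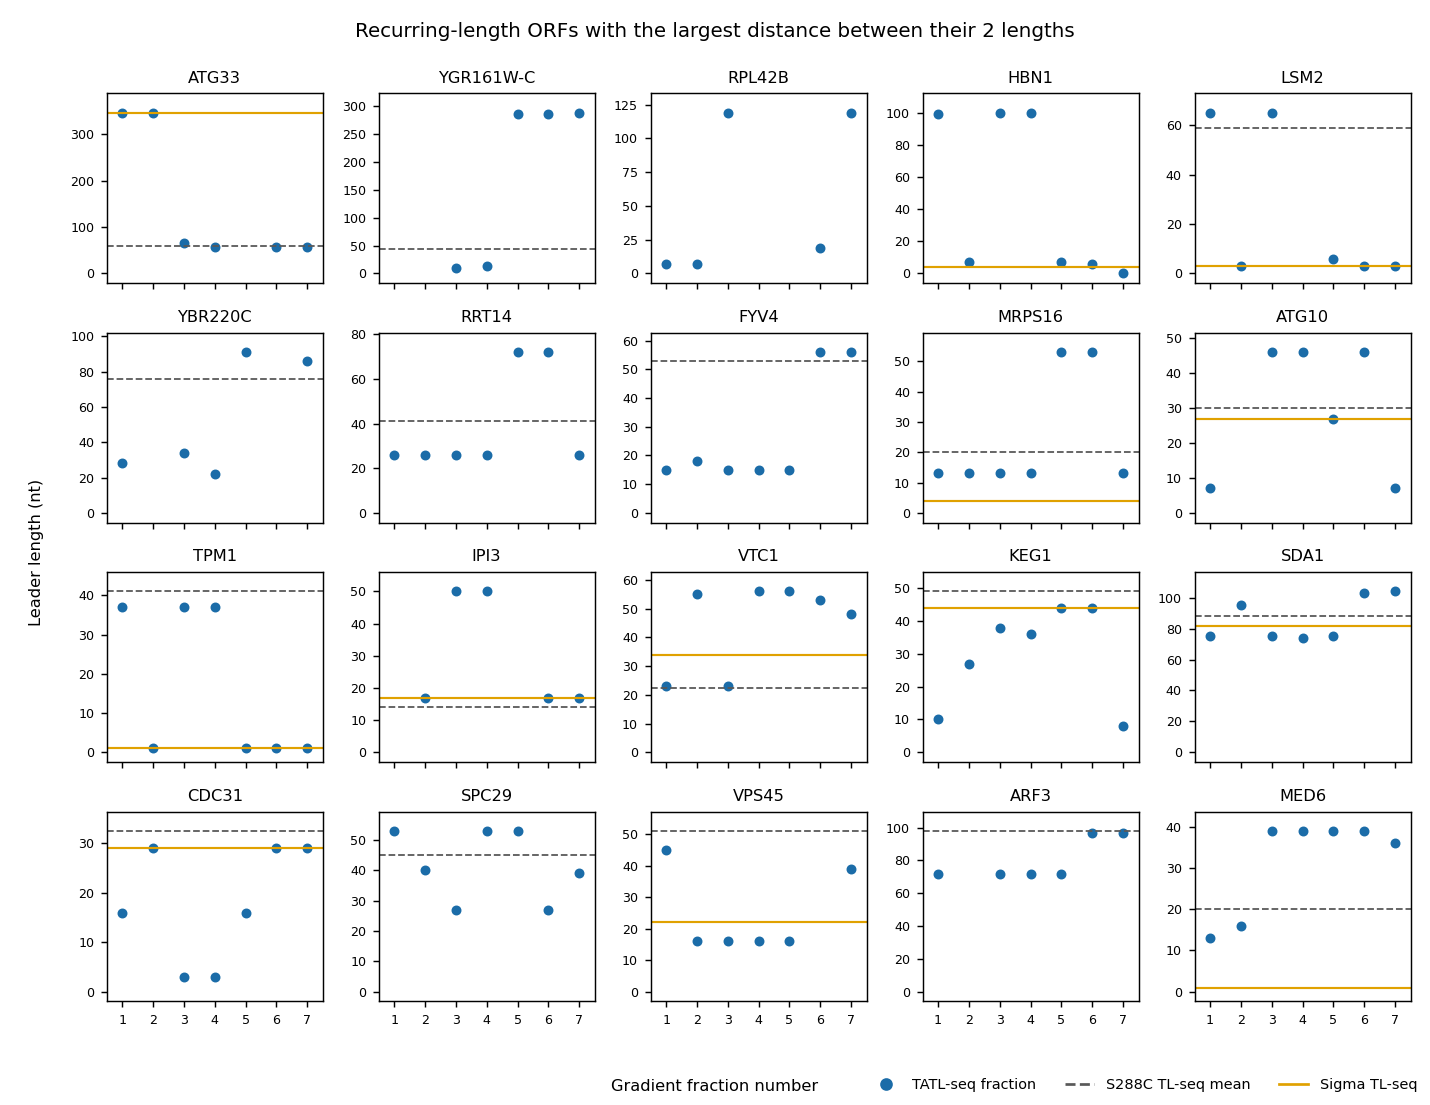
Leader length (nt) in each of the 7 gradient fractions for the 20 recurring-length ORFs with the largest distance between their 2 lengths. Points are single TATL-seq libraries, the dashed line is the mean of the called S288C TL-seq replicates and the solid line the Sigma TL-seq call; lengths repeat at 2 levels, such as 1 and 37 nt for TPM1, while the fractions at each level vary between ORFs.

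Several ORFs switched between 2 lengths repeated to within 1 to 3 nt. TPM1, for the tropomyosin of actin cables, had a 37 nt leader in fractions 1, 3 and 4, whereas fractions 2, 5, 6 and 7 all gave 1 nt. Its S288C replicates both had 41 nt, Sigma had 1 nt and the Sigma library without pyrophosphatase had 37 nt. LSM2, for a subunit of the ring that binds U6 RNA and decapping substrates, was at 65 nt in fractions 1 and 3, while fractions 2, 6 and 7 gave 3 nt and fraction 5 gave 6 nt. Sigma again had the short length, 3 nt, while the S288C replicates lay apart at 46 and 72 nt. For both ORFs the short start left at most 6 nt before the start codon.

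For RRT14 fractions 5 and 6 gave 72 nt, whereas fractions 1 to 4 and 7 gave 26 nt. MRPS16, for a protein of the small mitochondrial ribosomal subunit, split the same way, with 53 nt in fractions 5 and 6 against 13 nt in the other 5. Neither length lay within 5 nt of the S288C replicates, which were 41 nt for RRT14 and 20 nt for MRPS16 in both. S288C lengths were generally offset from the gradient by 5 nt, and with this taken off MRPS16 would match its 13 nt. IPI3, for a factor of large-subunit ribosome assembly, measured 17 nt in fractions 2, 6 and 7, against 50 nt in fractions 3 and 4. There S288C (14 nt in both) and Sigma (17 nt) shared the short length, though with the 5 nt taken off S288C would match neither. ATG10, for the enzyme that joins Atg12 to Atg5 in autophagy, had 3 levels, with fractions 1 and 7 at 7 nt, fraction 5 at 27 nt and fractions 3, 4 and 6 at 46 nt. Sigma had the middle one, 27 nt, and S288C 30 nt.

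Others kept 1 length on each side of a point in the fraction order. FYV4 stayed at 15 to 18 nt through fractions 1 to 5, fractions 6 and 7 gave 56 nt, and both S288C replicates had 53 nt. ARF3, for a small GTPase of polarity, measured 72 nt in fractions 1, 3, 4 and 5 against 97 nt in fractions 6 and 7, with S288C at 99 and 97 nt. MED6, for a subunit of the Mediator of RNA polymerase II, was short in fractions 1 and 2 (13 and 16 nt) and long afterwards, at 39 nt through fractions 3 to 6 and 36 nt at fraction 7. S288C had 20 nt for MED6 and Sigma 1 nt. For YBR220C fractions 1, 3 and 4 gave 28, 34 and 22 nt, against 91 and 86 nt from fractions 5 and 7. FYV4 and MED6 are neighbours on chromosome VIII, transcribed away from each other, with 223 nt between their ORFs.

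The rest of the 20 largest were less regular in order. CDC31, the centrin of the spindle pole body, stood at 3 nt in fractions 3 and 4, at 16 nt in fractions 1 and 5, and at 29 nt in Sigma and fractions 2, 6 and 7. SPC29, for another spindle pole body component, gave 53 nt from fractions 1, 4 and 5, 27 nt from fractions 3 and 6, and 40 and 39 nt from fractions 2 and 7. VPS45, for a protein that guides membrane fusion on the way to the vacuole, held 16 nt through fractions 2 to 5, with 45 and 39 nt at fractions 1 and 7. VTC1, for a subunit of the vacuolar polyphosphate polymerase, was at 23 nt in fractions 1 and 3, and the other 5 fractions gave 48 to 56 nt. KEG1, for an endoplasmic reticulum protein of glucan synthesis, had 10 and 8 nt at the ends of the series, fractions 1 and 7, and 27 to 44 nt in between. SDA1, for a ribosome assembly factor, measured 74 to 75 nt in fractions 1, 3, 4 and 5, while fractions 2, 6 and 7 gave 95, 103 and 104 nt.

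Which fractions held the long length varied from ORF to ORF. Over the 72 recurring-length ORFs 58 different patterns occurred, and the commonest, short in fractions 1 and 2 and long in fractions 3 to 7, was shared by 4 ORFs, AST1, MED6, RPS18B and YCR087C-A. RRT14, MRPS16 and RPL24B shared long lengths in fractions 5 and 6 only, and HBN1 and TPM1 shared them in fractions 1, 3 and 4. The short group came wholly before the long one in fraction number in 14 ORFs, the long one came first in 4, and they interleaved in 54. The long group had the higher mean fraction number in 44 ORFs, the lower in 22 and the same in 6. Of ORFs at either length, 13 were long and 38 short in fraction 1 (25.5% long), against 40 and 22 in fraction 5 (64.5% long) and 36 and 31 in fraction 7 (53.7% long). Each fraction is 1 library, so these counts describe those libraries and carry no test.

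**Figure D2:**
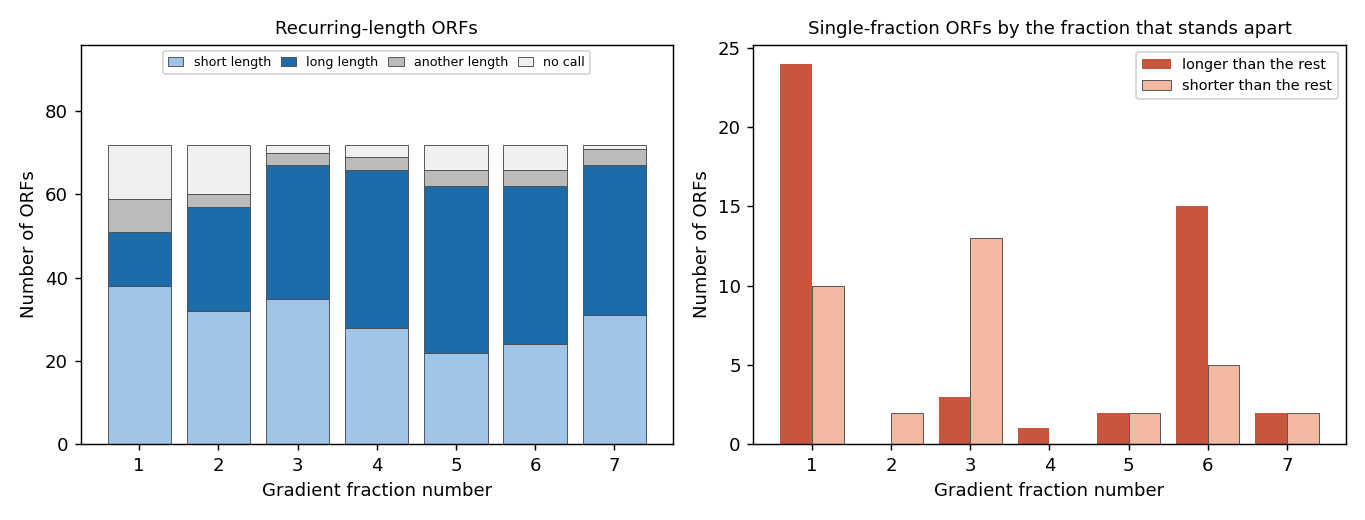
Number of ORFs by gradient fraction. Left, the 72 recurring-length ORFs at their short length, long length, another length or without a call; right, the 81 single-fraction ORFs by the fraction that stands apart and its direction. The long length has its lowest count, 13, in fraction 1, and 24 of the single lengths are longer ones in fraction 1.

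Fractions resembled each other to different degrees. Among members called in both, fractions 4 and 5 lay within 5 nt of each other most often (61.0% of 164), and fractions 1 and 6 least often (13.9% of 144). The 6 pairs with fraction 1 gave 13.9% to 31.6%. Over all 1684 ORFs fractions 1 and 6 were again lowest, at 69.3%, and fractions 2 and 7 highest, at 85.9%. Members were chosen for differing between fractions, so nothing is read from their lower shares. Recurring-length ORFs were at the same one of their 2 lengths in 55.8% of 328 comparisons between neighbouring fractions, in 32.2% of 214 between fractions 3 apart and in 44.7% of 47 between fractions 1 and 7.

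**Figure D3:**
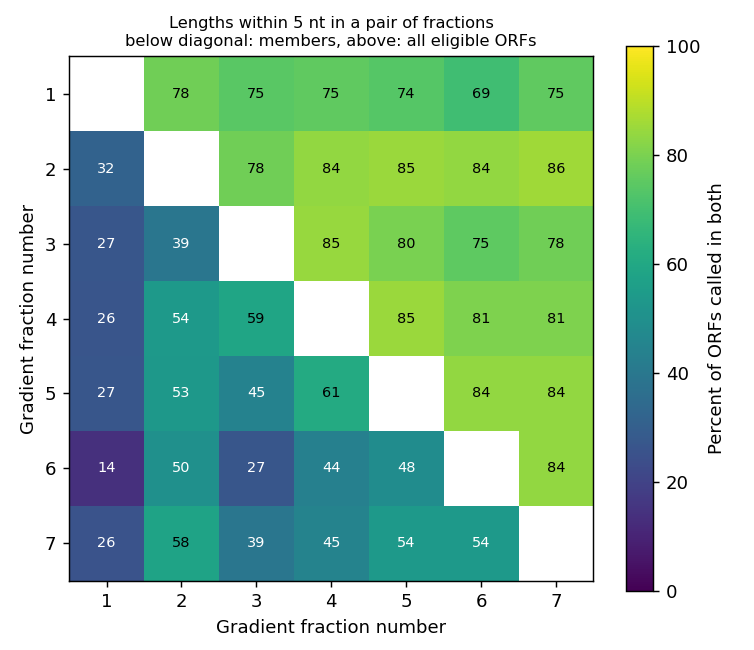
Percent of ORFs called in both fractions whose lengths lay within 5 nt, for each pair of fractions (axes, fraction number). Values below the diagonal are the 190 members and values above it all 1684 ORFs called in at least 5 fractions and inside the TL-seq bounds. Lower values for members follow from the rule that chose them. The lowest member value is 13.9% for fractions 1 and 6.

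Sigma TL-seq took no part in choosing the members. It called 51 of the 72 recurring-length ORFs and lay within 5 nt of the short group in 13, of the long group in 19 and of neither in 19. In all, Sigma repeated the exact length of at least 1 fraction in 77 of 122 members (63.1%), beside 774 of 1161 over all ORFs considered (66.7%). S288C TL-seq replicate 1 did so in 6 of 146 members and in 83 of 1365 of all (6.08%). That library and the second replicate gave lengths that were offset from the gradient generally. The median difference of the gradient's median length from the S288C mean was -5.25 nt over members and -5 nt over all. With both replicates called, 61 recurring-length ORFs had both at the short group in 15, both at the long group in 14 and both at neither in 24. Of those 24, S288C exceeded every fraction in 14, lay between the lowest and highest in 9 and was below all in 1.

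The S288C replicates themselves were placed at different lengths in 2 recurring-length ORFs. SPC29 had 32 nt in replicate 1, near its 27 nt group, and 58 nt in replicate 2, near 53 nt. SEC59, for dolichol kinase, had 49 and 57 nt, where 5 fractions gave 39 to 46 nt and fractions 3 and 4 gave 58 and 62 nt. In 6 further ORFs 1 replicate matched a group and the other none.

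In 13 ORFs both S288C and Sigma could be placed, at the same length in 8 and at different lengths in 5. ATG33 and TPM1 were among the different ones, on opposite sides, though the rule excluded an S288C mean at the long length of ATG33. UMP1, for a proteasome assembly chaperone, measured 13 nt in Sigma as well as fractions 1 and 3, fraction 5 gave 22 nt, the other 4 gave 34 to 36 nt, and both S288C replicates gave 29 nt. These placements keep the general 5 nt offset of S288C. With it taken off, S288C would be at the short group of UMP1, as Sigma is. RPS18B would change the other way, with S288C at its short group and Sigma at its long one. For IPI3 and TAF7 S288C would then match neither group. LSM4, another Lsm ring subunit, was long in fractions 2, 4, 5 and 6 (61 nt) and Sigma (64 nt), and shorter in fractions 1, 3 and 7 (37, 42 and 40 nt) and S288C (42 nt). IST1, for a regulator of endosomal sorting, was short in fractions 1 and 7 (23 and 20 nt) and S288C (22 nt), and longer in the other fractions (33 to 41 nt) and Sigma (41 nt). Among the 8 in the same place, SNL1 had 24 nt in Sigma and 29 nt in S288C, like its 24 nt in fractions 1 and 3 and unlike its 48 nt in the other 5. The library without pyrophosphatase also gave 24 nt, so whether that end was capped is not settled by it.

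Single-fraction ORFs concentrated in 3 fractions. Fraction 1 stood apart in 34 of 81 (24 longer, 10 shorter), fraction 6 in 20 (15 longer, 5 shorter) and fraction 3 in 16 (3 longer, 13 shorter), while the other 4 fractions gave 1 to 4 each. Of 22 single lengths at least 50 nt longer than the median of the rest, 19 were in fraction 1 and 3 in fraction 6. The median distance of longer single lengths was 123 nt in fraction 1 and 23 nt in fraction 6. The median distance of shorter ones in fraction 3 was 24 nt. The remaining fractions agreed exactly with each other in 32 of the 81.

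The other fractions differ from fraction 1 in these ORFs by definition. Of the TL-seq calls only those of Sigma stand outside the choice. The rule excluded an S288C mean at the fraction 1 length of PRY2, ERG3 or ALD5, so nothing is read from their S288C calls. For PRY2, for a secreted sterol-binding protein, fraction 1 had 254 nt and fractions 3 to 7 had 36 to 46 nt, with 51 nt in both S288C replicates and 46 nt in Sigma. CRZ1, the transcription factor activated by calcineurin, had 304 nt against 92 to 95 nt in fractions 3 to 7 and 92 nt in Sigma. ERG3, for a desaturase of ergosterol synthesis, had 207 nt against 11 to 15 nt in the other 6. S288C had 70 nt for ERG3 in both replicates, a further level, and the library without pyrophosphatase 16 nt. ALD5, for a mitochondrial aldehyde dehydrogenase, had 233 nt against 75 to 78 nt and 81 nt in its only S288C call.

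Of the 24 ORFs longer in fraction 1, Sigma called 11, at the length of the other fractions in 7, at neither in 3 and at the single length in 1, CCT7, with 47 nt. Of the 19 at least 50 nt longer, it called 9, at the length of the others in 7, at neither in 2 and at the single length in none. The rule had already left out ORFs with long S288C leaders, which limits what these counts can show. The phosphatidylglycerol phospholipase gene PGC1 and the glyoxalase gene GLO1 were at the common 14 nt in Sigma, MIN7 at 16 nt. FIT2, for a cell wall mannoprotein of iron uptake, was nearest to an exception with 316 nt in Sigma against 301 nt in fraction 1 and 13 to 17 nt in fractions 3 to 7. MF(ALPHA)2, for the α-factor pheromone, had 287 nt against 38 to 41 nt and 53 nt in both S288C replicates, and no call in Sigma. The rule excluded an S288C mean at 287 nt.

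**Figure D4:**
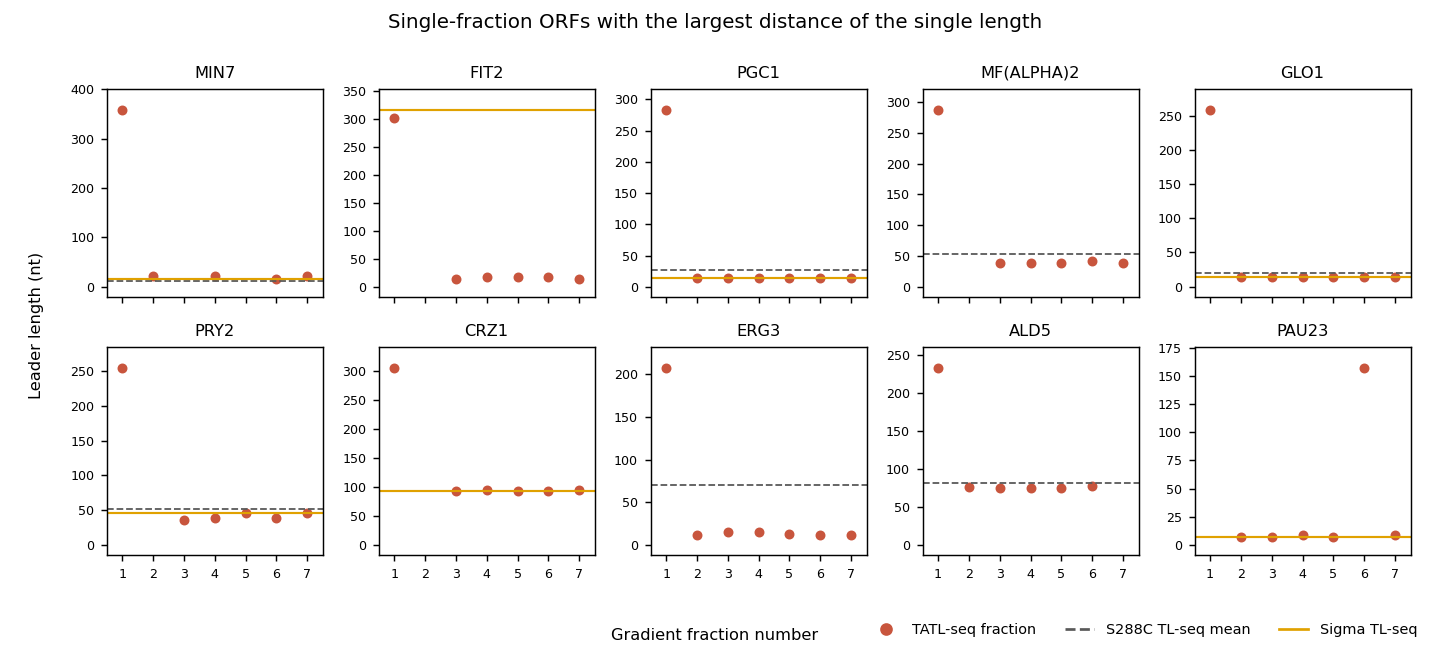
Leader length (nt) by gradient fraction for the 10 single-fraction ORFs with the largest distance between the single length and the median of the rest. Points are single TATL-seq libraries, the dashed line is the mean of the called S288C TL-seq replicates and the solid line the Sigma TL-seq call; in 9 of the 10 the high point is fraction 1, and for FIT2 the Sigma line lies near it, at 316 nt.

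Sigma called 14 of the 15 ORFs that were longer in fraction 6, at the single length in 8, at that of the other fractions in 5 and at neither in 1. The fractions differed in how far the single lengths lay from the rest, since 12 of these 15 were under 50 nt longer. Over all fractions Sigma shared the single length in 1 of 12 ORFs longer by 50 nt or more and in 8 of 18 longer by less. RPS16A, for a protein of the small ribosomal subunit, measured 76 nt in Sigma and fraction 6, while the other 6 fractions gave 17 nt. PRE9, for a subunit of the 20S proteasome, measured 48 nt in both, while fractions 1, 3, 4 and 5 gave 22 nt. YLR046C had 179 nt in both against 157 nt in the other 6 fractions. FUR4, the uracil permease gene, had 100 nt in both against 78 to 79 nt. RTF1, for a subunit of the Paf1 elongation complex, had 45 nt in both against 24 nt. MIM1, for a mitochondrial import factor, had 33 nt in fraction 6 and 36 nt in Sigma. In the other 6 fractions and in the library without pyrophosphatase it had 13 nt. ORA1 likewise had 47 and 50 nt, and 17 nt in the library without pyrophosphatase and in 5 fractions. SUR2, a sphingolipid hydroxylase gene, had 73 and 68 nt against 50 to 53 nt. PAU23, of the seripauperin family, had 157 nt in fraction 6 only, with 7 nt in Sigma. S288C was at the common length for RPS16A (22 nt in both replicates) and MIM1 (12 nt in both). It was at the fraction 6 length for TOM22 (48 nt in both, 47 nt in fraction 6) and DDR48 (55 nt in both, 56 nt in fraction 6). For PRE9, RTF1, ORA1 and SUR2 it was at neither. With the general 5 nt offset of S288C taken off, MIM1 and DDR48 would match neither. The difference between fractions 1 and 6 in how often Sigma shared the single length was not tested, and fraction and distance move together in these counts. CCT7 and the fraction 6 examples beyond PAU23, PRE9 and RPS16A were named after their values were seen.

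For the 13 ORFs shorter in fraction 3, Sigma called 6 and was at the length of the other fractions in all 6. HYR1, for a glutathione peroxidase, measured 33 nt in fraction 3, against 57 nt in Sigma and the other 6 fractions. DIF1, for a regulator of ribonucleotide reductase localisation, measured 12 nt in fraction 3, whereas Sigma and the other 4 fractions with a call gave 66 nt. Its S288C replicates, at 19 nt, were on neither, but would be within 5 nt of fraction 3 with the general 5 nt offset of S288C taken off. For RPS6A fraction 3 gave 26 nt and both S288C replicates 30 nt, whereas fractions 1, 2, 6 and 7 gave 146 nt. The rule excluded an S288C mean at 146 nt. HYR1 and DIF1 were named after their values were seen. The library without pyrophosphatase called 9 of the 81 single-fraction ORFs, at the common length in 6, the single length in 1 and neither in 2.

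The 37 other members were led by RGI1, a gene induced in respiratory growth, for which fractions 1 and 3 gave 34 and 49 nt but fractions 4, 6 and 7 gave 295 nt. Its S288C replicates had 86 and 77 nt, and the rule excluded a mean at 295 nt. NNR2, for a repair enzyme of damaged NAD(P)H, was longest in fraction 1 (243 nt), followed by fraction 3 (35 nt), and the other 5 gave 13 to 18 nt, with 18 nt in Sigma. YGR153W measured 203 nt in fraction 1, fractions 2, 3, 4 and 7 gave 193 nt, and fraction 6 gave 7 nt. HAT2, for a histone acetyltransferase subunit, measured 205 nt in fraction 1 and 41 nt at fraction 2, while both S288C replicates and fractions 3, 5 and 7 gave 52 nt. EMI2, a relative of glucokinase, measured 109 nt in Sigma and fractions 5 to 7, while fractions 1 and 2 gave 131 and 41 nt and S288C gave 53 nt. An S288C mean at 109 nt was likewise excluded by the rule.

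The TL-seq libraries took no part in choosing by range. Sigma lay at least 10 nt from both S288C replicates, which had to lie within 10 nt of each other, in 49 of 82 members (59.8%, 95% Wilson interval 48.9 to 69.7), beside 39.8% of all 883 ORFs that could be compared. It was longer in 23 (28.0%, beside 12.1% of all) and shorter in 26 (31.7%, beside 27.6% of all). The S288C replicates differed by 10 nt or more in 24 of 146 members (16.4%, interval 11.3 to 23.3), beside 11.2% of all 1365. They were identical in 71.9% of members and 79.1% of all. These libraries differ in strain and sequencer, which cannot be told apart here. The general 5 nt offset of S288C from the gradient was kept, while the gradient's median difference from Sigma was 0 nt over all. The 10 nt bound against S288C is therefore not alike for longer and shorter. The next 2 measures used the gradient's own lengths, which also chose the members, so that nothing is read from their distance to all ORFs. The gradient median lay within 10 nt of Sigma in 70 of 122 members (57.4%), beside 82.4% of 1161. It differed from the S288C mean by at least 10 nt in 100 of 162 (61.7%, interval 54.1 to 68.9), beside 42.2% of all 1493, longer in 35 (21.6%, beside 10.6%) and shorter in 65 (40.1%, beside 31.5%). Sigma called 122 of 190 members (64.2%, beside 68.9% of all) and the library without pyrophosphatase 15 (7.89%, beside 9.2% of all). The intervals cover counting error over ORFs only, and none of these shares was tested.

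**Figure D5:**
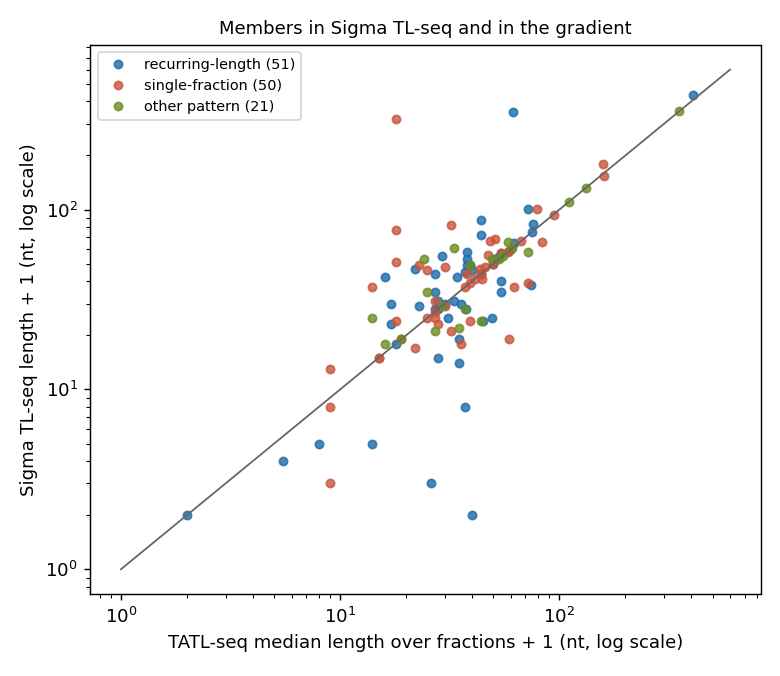
Sigma TL-seq length against the median TATL-seq length over fractions (both in nt plus 1, log scales) for the 122 members called in Sigma, coloured by pattern, with the number of ORFs in the key and a line of equality. Of these, 70 lie within 10 nt of the line; FIT2 and ATG33 are the points far above it at 316 and 346 nt.

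A leader lies before its ORF by definition. For none of the 189 members with a known neighbour did the longest length reach into the next annotated gene. It did so in only 5 of 1683 among all ORFs considered, so nothing is read from this about the members. The space between the ORF and that gene had a median of 475 nt in members and 389 nt over all. The neighbouring ORF lay on the other strand in 52.2% of 178 members and in 53.0% of 1596 ORFs overall. The median ORF span was 949.5 nt in members and 966 nt over all. A shortest leader of 0 to 3 nt occurred in 12 members (6.32%), beside 65 of all 1684 (3.86%). The shortest length is part of the rule, and nothing is read from that share. Among them TRM44, for a tRNA methyltransferase, measured 0 nt in fraction 3 against 52 nt in the other 4 fractions with a call, and TPH3 measured 92 nt in fraction 1 against 2 nt from fractions 3 to 6. Both were named after their values were seen.

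By function, 9 of 103 cytosolic ribosomal protein genes were members (8.74%, beside 11.3% of all), 5 of them recurring-length ORFs, and the list's median range was 2 nt. RPS25A had 327 to 362 nt in fractions 2 to 7, 35 nt in S288C and 351 nt in Sigma. RPL24B stood at 399 nt in fractions 1 and 2, at 406 nt in fractions 3, 4 and 7 and at 430 nt in Sigma and fractions 5 and 6, and S288C gave 30 nt. An S288C mean at such long lengths would have left either gene out by the rule, so nothing is read from the S288C difference. Whether introns before the start codon are counted is unknown, and these genes have similar copies. The remaining ribosomal members were RPS6A, RPL42B, RPS16A, RPS12, RPL12A, RPS18B and RPP1A. Of 38 mitochondrial ribosomal protein genes 3 were members. Beside MRPS16 these were MRPS28, with 59 nt in fraction 7 against 12 to 30 nt in its other fractions, and MRPL15, with 13 nt in S288C and fraction 7 against 34 to 37 nt in fractions 2 to 6.

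Genes of autophagy and the vacuole gave 5 members of 14 (35.7%, beside 11.3% of all), with a median range of 12.5 nt, where the list was drawn up with earlier results on ATG33 known. It held the ATG genes, vacuolar ATPase subunits and some hydrolases, and not the members VTC1 and VPS45. Beside ATG33 and ATG10 they were CPS1, for a vacuolar carboxypeptidase (31 to 75 nt, with 54 nt in fractions 2, 5 and 6 and in Sigma), ATG26, for a sterol glucosyltransferase (31 nt in fraction 2, 70 nt in fraction 1, 52 to 55 nt in the others), and VMA2, for a subunit of the vacuolar proton pump. For VMA2 fractions 1, 4 and 5 gave 61, 61 and 63 nt, and the other 4 gave 42 to 44 nt. Cell wall and mating genes gave 2 of 13 (15.4%), FIT2 and MF(ALPHA)2, and sterol and lipid genes 2 of 17 (11.8%), PGC1 and ERG3, and these lists too held genes known from earlier results. Translation factors gave 2 of 22 (9.09%). ANB1, an eIF5A gene, measured 11 nt in fraction 6 against 26 to 37 nt in its other fractions, and SUP35, the release factor eRF3 gene, measured 22 nt in fractions 2 and 6 against 27 to 42 nt in its other fractions. Proteasome genes gave 1 of 20 (PRE9) and the early secretory pathway 1 of 20, the cargo receptor gene ERV25 (33 to 53 nt). No member was found among 22 respiration genes, 7 chaperone and heat shock genes or 4 genes with characterised upstream ORFs. The chaperone list did not hold the chaperonin genes CCT7 and CCT8 or the J-protein genes CAJ1 and JJJ2, which were members. No list was tested.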

How the data were processed

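The authors deposited, per library, genes with 1 called leader length (nt) each, without header, read numbers or depth. Bowtie (all libraries) and build sacCer3 (those sequenced on a Genome Analyzer II) are recorded in the submitters' processing notes. The sources used here do not state the rule that gave 1 length per gene, the annotation or the build of the S288C libraries. ORF names were matched to the RefSeq gene table of assembly R64 for symbols, positions and neighbours, with strand read from the systematic name. Starts were computed as the ORF's edge minus or plus the length. Lengths were grouped at gaps of 10 nt, and another library was placed at a group when within 5 nt of one of its lengths. The scripts (Python 3.11.15, pandas 2.3.3, SciPy 1.17.1) were tested on simulated data. The members, the gene lists and the rule for naming ORFs were chosen with earlier results of these data known. That rule took the 20 widest recurring-length, 10 widest single-fraction and 5 widest other ORFs, up to 4 at the threshold on each side, up to 6 with separated lengths, those with split replicates, and up to 4 per list. No test was made, since each fraction and each Sigma condition is 1 library. Planned counts of upstream start codons and of bases at the starts were not made, since no sequence was held.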

Additional observations from a re-analysis of the deposited data

How the results depend on the processing

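The number of members follows the thresholds. With a minimum range of 10, 30 or 40 nt there were 513, 85 and 52 members, of which 153, 28 and 11 were recurring-length, 171, 39 and 31 single-fraction and 189, 18 and 10 other ORFs. With a call required in all 7 fractions there were 95 (42, 31 and 22), and with 4 fractions the other ORFs numbered 57. Leaving out a fraction gave 122 (without fraction 1) to 164 members, with 41 (without fraction 1) to 58 recurring-length, 53 (without fraction 1) to 77 single-fraction and 25 to 36 other ORFs. A gap of 20 nt gave 25 recurring-length and 92 other ORFs, and lengths repeated to the nucleotide and at least 20 nt apart gave 27. Within 2 nt, S288C replicate 1 was at the short, long or neither group in 7, 5 and 50 ORFs and replicate 2 in 5, 7 and 52; within 10 nt, replicate 1 was at the long group in 27 and neither in 15, replicate 2 in 33 and 12, and Sigma at neither in 12. With the 5 nt offset subtracted, an alternative chosen after seeing the data, replicate 1 was short in 15, long in 20 and neither in 27. At 5 and 20 nt in place of 10 nt, S288C replicates differed in 25.3% and 9.59% of members, Sigma from S288C in 79.3% and 31.7%, and the gradient median from S288C in 83.3% and 33.3%. Other alternatives, among them either S288C replicate left out, stayed within 1.5 times the count or inside the interval. No paired analysis was possible because each fraction and Sigma condition is 1 library and the results come from no test. Read depth is unknown and limits every call.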
